A study of Solanum lycopersicum with 18 samples.

Results

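The genes described here carry symbols of the core cell cycle machinery: A-, B- and D-type cyclins, A- and B-type cyclin-dependent kinases (CDKs), Kip-related proteins (KRPs), CCS52 proteins and the kinase WEE1. Of 29922 genes in the deposited files, 16 had such a symbol. The 10 with the highest mean TPM (a transcript level relative to transcript length and library total) over all 18 libraries were taken, and *ccs52B* was added, which gave 11 members. They were chosen by mean TPM, so their levels are a description. The tenth by rank, *krp2*, had a mean of 11.6 TPM, and the nearest genes outside were *CycA3* at 11.2 TPM and *CycA2* at 10.8 TPM. Ranked by median TPM instead, 9 of the 11 members were kept, with *CycA3* and *CycA2* in place of *CycA1* and *krp4*. The mean takes in both genotypes, and *krp4* and *cycd3c2* entered through their *dgt* libraries: by WT mean alone they ranked 13 and 11 of 16, and by *dgt* mean 8 and 7. For *krp4* these means were 7.20 TPM in WT and 17.0 TPM in *dgt*. The A-type kinases stand in the files under other symbols and are not among the members. No B-type cyclin was a member.

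Tomato seedlings of the cultivar Ailsa Craig were 7 days old when RNA was taken from their roots, dissected into meristem, elongation and differentiation zones. WT plants were compared with *dgt1-1* plants (*dgt*), which carry a mutation in the cyclophilin A gene *DIAGEOTROPICA*. Each zone and genotype had 3 biological replicates, 18 libraries in all, and each replicate pooled about 50 to 100 dissected root portions. All plants grew on sucrose-containing agar medium at 21 °C with 16 h of light a day.

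In plants, D-type cyclins bind A-type CDKs and drive cells from G1 into S phase by phosphorylating the retinoblastoma-related protein. A- and B-type cyclins act from S phase to mitosis, and the B-type CDKs, a class particular to plants, act late in the cycle. KRPs bind and inhibit CDK-cyclin complexes. CCS52 proteins activate the anaphase-promoting complex, a ubiquitin ligase that sends mitotic cyclins to degradation, and CCS52A is known for the switch from division to endoreduplication, in which nuclei replicate without dividing. In a root, cells divide in the meristem, stop dividing and lengthen in the elongation zone, and mature in the differentiation zone, where some pericycle cells divide again to form lateral roots. These libraries are of whole tissue, so fewer cells of a type and less RNA per cell cannot be told apart.

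The expected counts, RSEM's estimates of the reads from each gene, summed to between 17919441 and 29133603 per library. WT meristem replicate 2 had the highest total and stood apart from the other WT meristem libraries: it had the lowest TPM of the 3 for 6 members and the highest for 2. Its TPM relative to the mean of the other 2 was 0.441 for *krp2*, 0.477 for *CycA1*, 0.641 for *ccs52B* and 0.646 for *cdkB2*, but 1.02 for *cdkB1* and 1.30 for *cycD3*. The spread of counts beyond sampling noise, as a biological coefficient of variation, was 0.299 in the WT meristem and 0.0962 in the *dgt* meristem. Markers of dividing cells outside the members (*H2B-1*, *H2B-2*, *H2B-3* and *pcna*) summed to 1753 to 2296 TPM in the 6 meristem libraries and to 366 to 639 TPM in the 12 others, as the labels of the zones say. No gene was found under the symbol of *DIAGEOTROPICA*, so the genotype labels were not checked by that gene.

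**Figure D1:**
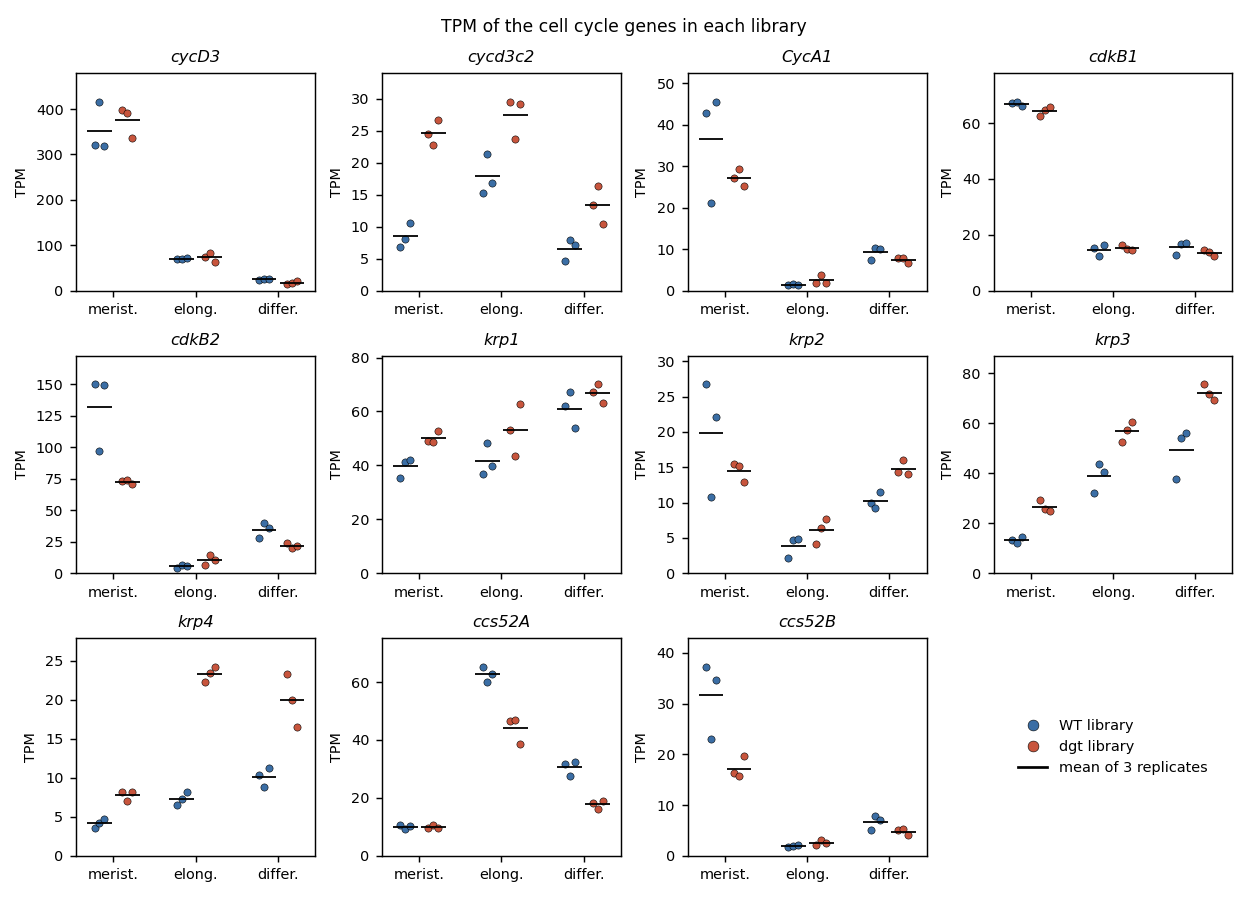
TPM of each of the 11 members (vertical axes, scales differ between panels) in each library, by zone along the horizontal axis; points are libraries, WT in blue and *dgt* in red, and the lines are means of 3 replicates. *cycD3* and *cdkB1* stand highest in the meristem, *ccs52A* in the elongation zone, and *cdkB2*, *CycA1*, *krp2* and *ccs52B* dip in the elongation zone.

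The first question the zones pose is how the machinery is spread along the WT root. The most abundant member was *cycD3*, a D-type cyclin. In WT it had 322, 416 and 319 TPM in the meristem, 69.8, 70.2 and 71.0 TPM in the elongation zone, and 24.4, 25.1 and 25.9 TPM in the differentiation zone. It thus fell at each step toward the shoot, and no zone overlapped the next. In the fit across all genes (edgeR's quasi-likelihood test, Benjamini-Hochberg adjustment, with calls at adjusted p-values below 0.05 and changes of over 2-fold), it was 5.38-fold lower in the elongation zone than in the meristem (log2 −2.43, SE 0.23, adjusted p = 3.47e-06). It was lower again, by 3.27-fold, in the differentiation zone (log2 −1.71, SE 0.22, adjusted p = 0.000118).

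The other D-type cyclin, *cycd3c2*, had a different course. Its WT libraries held 6.89, 8.10 and 10.6 TPM in the meristem, 15.3, 21.4 and 16.9 TPM in the elongation zone, and 4.69, 7.92 and 7.17 TPM in the differentiation zone. The elongation zone was the high point, above every library of both neighbours. The step from the meristem passed the adjusted p-value but stayed just under 2-fold (log2 0.99, SE 0.20, adjusted p = 0.00129), and without WT meristem replicate 2 it was called (log2 1.25). The step down to the differentiation zone was called (log2 −1.67, SE 0.21, adjusted p = 9.26e-05).

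The B-type kinase *cdkB1* was a meristem gene in WT with no return further up. It had 67.1, 67.7 and 65.9 TPM in the meristem, 15.2, 12.5 and 16.3 TPM in the elongation zone, and 12.7, 16.8 and 17.1 TPM in the differentiation zone. The drop out of the meristem was 4.80-fold (log2 −2.26, SE 0.20, adjusted p = 2.00e-06), and the next step did not pass the test (log2 −0.16, SE 0.19, adjusted p = 0.509).

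*cdkB2*, the other B-type kinase, dipped instead. It had 150.0, 96.7 and 149 TPM in the WT meristem, 3.99, 6.79 and 6.02 TPM in the elongation zone, and 28.1, 39.6 and 35.6 TPM in the differentiation zone. The elongation zone was 24.9-fold below the meristem (log2 −4.64, SE 0.20, adjusted p = 2.62e-08), and the differentiation zone was 5.30-fold above the elongation zone (log2 2.41, SE 0.18, adjusted p = 3.72e-06). The 3 WT zones did not overlap.

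The A-type cyclin *CycA1* followed *cdkB2*. Its WT libraries had 42.9, 21.1 and 45.6 TPM in the meristem, 1.33, 1.64 and 1.29 TPM in the elongation zone, and 7.35, 10.2 and 10.1 TPM in the differentiation zone. It was 26.4-fold lower in the elongation zone than in the meristem (log2 −4.72, SE 0.25, adjusted p = 7.65e-08), and 5.54-fold higher in the differentiation zone than in the elongation zone (log2 2.47, SE 0.24, adjusted p = 1.70e-05).

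*ccs52B* dipped as well. In Arabidopsis its homologue is expressed around mitosis. It had 37.3, 23.1 and 34.6 TPM in the WT meristem, 1.77, 2.02 and 2.16 TPM in the elongation zone, and 5.17, 7.85 and 7.09 TPM in the differentiation zone. The drop was 16.6-fold (log2 −4.06, SE 0.19, adjusted p = 4.07e-08) and the return 2.89-fold (log2 1.53, SE 0.18, adjusted p = 6.57e-05).

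*ccs52A* ran opposite to them. It had 10.6, 9.23 and 10.2 TPM in the WT meristem, 65.3, 60.0 and 62.9 TPM in the elongation zone, and 31.8, 27.7 and 32.4 TPM in the differentiation zone. The elongation zone held the peak, with no overlap between zones. It was 5.97-fold above the meristem (log2 2.58, SE 0.19, adjusted p = 5.45e-07), and the differentiation zone was 2.39-fold below the elongation zone (log2 −1.26, SE 0.18, adjusted p = 0.000214).

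The 4 KRP inhibitors did not share one course. *krp2* dipped: its WT libraries had 26.8, 10.8 and 22.1 TPM in the meristem, 2.16, 4.71 and 4.81 TPM in the elongation zone, and 9.94, 9.19 and 11.5 TPM in the differentiation zone. It fell by 2.41 on the log2 scale out of the meristem (SE 0.30, adjusted p = 3.45e-05) and rose by 1.20 at the next step (SE 0.30, adjusted p = 0.00734). That rise was under 2-fold without WT elongation replicate 1 (log2 0.79).

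*krp3* was low in the meristem and higher beyond it, with 13.4, 11.9 and 14.3 TPM in the WT meristem, 32.0, 43.9 and 40.3 TPM in the elongation zone, and 37.8, 54.2 and 56.2 TPM in the differentiation zone. The first step was 2.76-fold (log2 1.46, SE 0.15, adjusted p = 7.43e-06), and the second did not pass the test (log2 0.12, adjusted p = 0.503). *krp4* had 3.54, 4.19 and 4.74 TPM in the WT meristem, 6.46, 7.33 and 8.17 TPM in the elongation zone, and 10.3, 8.83 and 11.2 TPM in the differentiation zone. Only its first step passed the adjusted p-value, under 2-fold (log2 0.73, SE 0.21, adjusted p = 0.00991), it was called without WT meristem replicate 2 (log2 1.04), and it missed the adjusted p-value in 2 of 17 alternatives (at most 0.105). *krp1*, the KRP with the highest mean TPM, had between 35.5 and 67.0 TPM in all 9 WT libraries, and neither step passed the test (log2 −0.03, adjusted p = 0.904, and log2 0.34, adjusted p = 0.148).

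Over the 11 members in WT, 2 were called higher and 6 lower in the elongation zone than in the meristem, with a median log2 fold of −2.26. Of all genes tested, 27.0% were called higher and 25.6% lower, with a median of 0.03. From the elongation to the differentiation zone, 4 members were called higher and 3 lower (median 0.25), where 19.9% of all genes were higher and 12.6% lower (median 0.22). A high level in 1 zone raises the mean TPM that chose the members, so these counts are not independent of the choice. *CycA1* had means of 36.5 and 27.3 TPM in the WT and *dgt* meristem and at most 9.24 TPM elsewhere, and the ranking by median TPM lost it. *ccs52B* was added by name. Across the 18 libraries, *cdkB2* correlated with *CycA1* (Pearson r of log2 TPM 0.98) and with *ccs52B* (0.98), and *ccs52A* ran against all 3 (−0.91 with *cdkB2*, −0.94 with *CycA1*, −0.91 with *ccs52B*). These points share zones, genotypes and library scaling, so the values are descriptive.

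**Figure D2:**
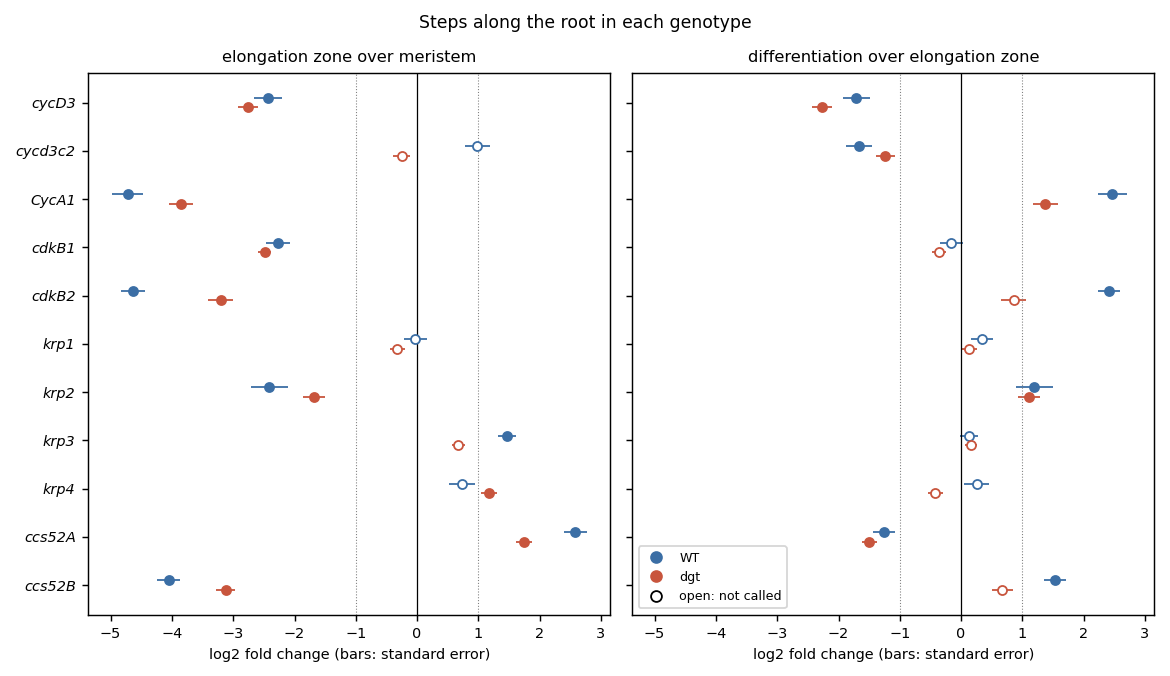
Log2 fold change (horizontal axis) of each member from the meristem to the elongation zone (left) and from the elongation to the differentiation zone (right), in WT (blue) and *dgt* (red); bars are standard errors, filled points were called, open points were not, and dotted lines mark 2-fold. *cdkB2* lies at −4.64 in WT and −3.20 in *dgt* in the left panel, and at 2.41 in WT and 0.86 in *dgt* in the right one.

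The steps along the *dgt* root were fitted on their own 9 libraries. Of the 11 members, 2 were called higher and 6 lower in the elongation zone than in the meristem (26.2% and 26.6% of all genes; medians −1.68 over the members and 0.02 over all genes). The 6 lower members were *cycD3*, *cdkB1*, *cdkB2*, *CycA1*, *krp2* and *ccs52B*, as in WT. *ccs52A* was called higher in both genotypes (log2 1.74, SE 0.12, adjusted p = 1.14e-08 in *dgt*). The other member called higher was *krp4* in *dgt* (log2 1.17, SE 0.13, adjusted p = 1.61e-06), where in WT it was *krp3*, whose step in *dgt* passed the adjusted p-value under 2-fold (log2 0.67, SE 0.10, adjusted p = 2.77e-05). From the elongation to the differentiation zone, 2 members were called higher (*CycA1* and *krp2*) and 3 lower (*cycD3*, *ccs52A* and *cycd3c2*), against 14.0% and 16.2% of all genes. As in WT, the counts of both steps are not independent of the choice by mean TPM. *krp2* was not called there without *dgt* elongation replicate 1 (log2 0.93), and *cdkB2* was called without *dgt* elongation replicate 2 (log2 1.17).

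The second question is how *dgt* differed from WT within a zone. The 10 members taken by rank were tested there. *ccs52B* was named by an earlier analysis of this contrast, so its values are described without a test. TPM ratios exceed the fitted folds in these comparisons, because the count fits apply a scaling factor (TMM) and TPM carries no such factor. Computed over all 18 libraries at once, the factors lay between 0.786 and 1.02 in WT libraries and between 1.04 and 1.14 in *dgt* libraries. The fits computed their own factors within each zone. Without the factor, the median log2 fold of all genes was 0.18 in place of −0.04 in the meristem, 0.28 in place of 0.01 in the elongation zone and 0.10 in place of 0.01 in the differentiation zone.

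Among the D-type cyclins, *cycd3c2* was the member called higher in the *dgt* meristem. It entered the set through its *dgt* levels (rank 11 by WT mean, 7 by *dgt* mean), so its tests here are not independent of the choice. The 3 *dgt* meristem libraries had 24.5, 22.8 and 26.7 TPM, against 6.89, 8.10 and 10.6 TPM in WT. Every *dgt* library was above every WT library, and the fitted fold was 2.60 (log2 1.38, SE 0.20, adjusted p = 0.00272). Its *dgt* elongation zone libraries had 29.6, 23.8 and 29.2 TPM, also above the WT libraries, but the fitted difference did not pass the test (log2 0.30, SE 0.16, adjusted p = 0.183). With 13.4, 16.3 and 10.4 TPM in the differentiation zone, *dgt* was higher by under 2-fold (log2 0.91, SE 0.20, adjusted p = 0.00530). That difference was called without WT differentiation replicate 2 (log2 1.02) or *dgt* differentiation replicate 3 (log2 1.05), and with library totals alone.

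*cycD3* showed its difference in the differentiation zone. There *dgt* had 15.3, 16.0 and 21.0 TPM, below all 3 WT libraries (log2 −0.64, SE 0.15, adjusted p = 0.00939, missed in 1 of 14 alternatives), a difference under 2-fold. In the meristem *dgt* had 397, 392 and 336 TPM, overlapping WT (log2 −0.11, SE 0.26, adjusted p = 0.796), and in the elongation zone 74.9, 83.1 and 63.1 TPM (log2 −0.27, SE 0.15, adjusted p = 0.214). The meristem overlap and sign rested on WT meristem replicate 2. Without it the difference was positive and still did not pass (log2 0.23, adjusted p = 0.120), with every *dgt* library above the other WT libraries.

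Among the late-acting genes, *cdkB2* was lower in *dgt* in the meristem and in the differentiation zone. The *dgt* meristem libraries had 73.2, 73.9 and 71.0 TPM, below the lowest WT library at 96.7 TPM. The fitted difference was just under 2-fold (log2 −0.99, SE 0.14, adjusted p = 0.00230), and it was called without WT meristem replicate 2 (log2 −1.04) or *dgt* meristem replicate 2 (log2 −1.02). The *dgt* differentiation zone had 24.1, 19.7 and 21.6 TPM, again below every WT library (log2 −0.77, SE 0.13, adjusted p = 0.00109). The elongation zone had 6.24, 14.8 and 10.7 TPM in *dgt* against 3.99, 6.79 and 6.02 TPM in WT, with overlap and a difference that did not pass the test (log2 0.59, SE 0.28, adjusted p = 0.134).

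*CycA1* had the same signs as *cdkB2* in the 3 zones, with less certainty. In the meristem *dgt* had 27.1, 29.3 and 25.3 TPM, between WT replicate 2 and the other WT libraries (log2 −0.52, SE 0.20, adjusted p = 0.0968). Without WT meristem replicate 2 the adjusted p was 0.000181 (log2 −0.69). The *dgt* elongation zone had 1.96, 3.71 and 1.92 TPM (log2 0.50, adjusted p = 0.242). With 7.92, 7.86 and 6.61 TPM in the *dgt* differentiation zone, the difference passed narrowly (log2 −0.42, SE 0.14, adjusted p = 0.0469) and missed the threshold in 11 of 14 alternatives. *cdkB1* did not pass in any zone: *dgt* had 62.5 to 65.8 TPM in the meristem, 14.6 to 16.4 TPM in the elongation zone and 12.6 to 14.4 TPM in the differentiation zone, with log2 differences of −0.23, −0.28 and −0.30 (adjusted p = 0.375, 0.289 and 0.111).

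The CCS52 genes activate the anaphase-promoting complex. *ccs52A* was lower in *dgt* outside the meristem. In the elongation zone *dgt* had 46.5, 46.9 and 38.6 TPM, against 60.0 TPM in the lowest WT library (log2 −0.85, SE 0.16, adjusted p = 0.00215). In the differentiation zone *dgt* had 18.1, 16.3 and 18.9 TPM, against 27.7 TPM in the lowest WT library (log2 −0.91, SE 0.14, adjusted p = 0.000617). Both differences were under 2-fold, and the second was called without WT differentiation replicate 2 (log2 −1.02). In the meristem *dgt* had 9.59, 10.5 and 9.59 TPM, overlapping WT (log2 −0.18, adjusted p = 0.445).

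*ccs52B* had 16.2, 15.7 and 19.6 TPM in the *dgt* meristem, below the lowest WT library at 23.1 TPM, and its fitted log2 difference was −1.01 (SE 0.15), from −1.10 to −0.80 over 14 alternatives. The *dgt* elongation zone had 2.05, 3.16 and 2.61 TPM (log2 0.07, SE 0.24), and in the differentiation zone 5.03, 5.21 and 4.06 TPM (log2 −0.61, SE 0.17). The genotypes overlapped in both of these zones. RSEM divided *ccs52B* between 2 transcripts. The longer one took 60.8% to 65.5% of it in the WT meristem and 54.8% to 68.2% in the *dgt* meristem, and over all 18 libraries 48.2% to 77.6%.

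Among the KRP inhibitors, *krp4* was higher in *dgt* in each zone. It entered the set through its *dgt* levels (rank 13 by WT mean, 8 by *dgt* mean), so its tests here are not independent of the choice. In the elongation zone *dgt* had 22.3, 23.4 and 24.3 TPM, against 6.46, 7.33 and 8.17 TPM in WT. The ranges were far apart, and the fitted fold was 2.54 (log2 1.34, SE 0.16, adjusted p = 9.37e-05). In the meristem *dgt* had 8.12, 7.08 and 8.17 TPM, above every WT library (log2 0.74, SE 0.21, adjusted p = 0.0407), but this difference missed the threshold in 6 of 14 alternatives. In the differentiation zone *dgt* had 23.4, 19.9 and 16.5 TPM, above the highest WT library at 11.2 TPM (log2 0.85, SE 0.17, adjusted p = 0.00326).

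*krp3* had 29.5, 25.8 and 24.7 TPM in the *dgt* meristem, where the highest WT library had 14.3 TPM. The difference passed under 2-fold (log2 0.86, SE 0.16, adjusted p = 0.00718), and was called with library totals alone (log2 1.08) or upper-quartile scaling (log2 1.01). The *dgt* elongation zone had 52.3, 57.2 and 60.6 TPM, above WT in TPM but not past the test (log2 0.23, SE 0.13, adjusted p = 0.207). Its *dgt* differentiation zone had 75.6, 71.8 and 69.2 TPM, above every WT library (log2 0.44, SE 0.12, adjusted p = 0.0176, missed in 2 of 14 alternatives).

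*krp2* did not pass in any zone. In the meristem *dgt* had 15.5, 15.1 and 12.9 TPM (log2 −0.54, SE 0.24, adjusted p = 0.136), and without WT meristem replicate 2 the adjusted p was 0.000915 (log2 −0.75). In the elongation zone *dgt* had 4.17, 6.33 and 7.69 TPM (log2 0.32, adjusted p = 0.452), and in the differentiation zone 14.4, 16.1 and 14.0 TPM (log2 0.42, adjusted p = 0.0729). *krp1* had 48.9, 48.8 and 52.9 TPM in the *dgt* meristem, with log2 differences of 0.17, 0.03 and 0.01 in the 3 zones (adjusted p = 0.561, 0.902 and 0.975). Without WT meristem replicate 2, its meristem difference passed under 2-fold (log2 0.38, adjusted p = 0.00916).

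Summed over the 4 KRP genes, *dgt* libraries held 96.8 to 102 TPM in the meristem, 131 to 155 TPM in the elongation zone and 163 to 181 TPM in the differentiation zone. WT libraries held 68.3 to 83.2, 77.3 to 104 and 120.2 to 139 TPM, with no overlap within a zone. These sums are in TPM, to which the scaling difference between the genotypes applies. They also include *krp4*, which entered the set through its *dgt* levels. *krp3* made up 17.2% of the mean sum in the WT meristem and 26.9% in the *dgt* meristem, and *krp4* 7.99% in the WT and 16.7% in the *dgt* elongation zone.

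**Figure D3:**
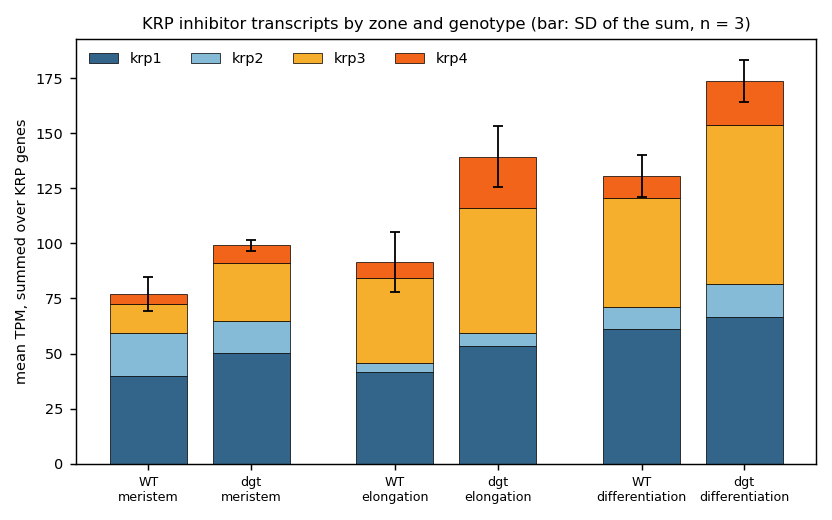
Mean TPM of the 4 KRP inhibitors, stacked, for each zone and genotype (vertical axis: TPM summed over the genes); error bars are the SD of the sum over 3 replicates. The *dgt* sums of 99.1, 139 and 174 TPM stand above the WT sums of 76.9, 91.6 and 131 TPM in the meristem, elongation zone and differentiation zone.

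Counted over the 10 ranked members, 1 (*cycd3c2*) was called higher in the *dgt* meristem and none lower, and 3 more passed under 2-fold. Of all genes tested, 10.1% were called higher and 2.72% lower, and 14.5% and 8.31% passed at any fold. In the elongation zone 1 (*krp4*) was called higher, none lower, and 1 passed under 2-fold (9.68% and 4.32% of all genes called, 14.9% and 12.2% past the adjusted p-value at any fold). In the differentiation zone none was called and 7 passed under 2-fold, 3 of them higher and 4 lower. There 8.54% of all genes were called higher and 4.47% lower, while 16.1% and 13.4% passed at any fold. TPM of the genotypes did not overlap for 6, 5 and 7 of the 10 members, where this held for 41.5%, 49.9% and 43.5% of all genes tested. Both calls fell on the members that entered the set through their *dgt* levels, and no other ranked member was called in any zone, so the counts of higher members are not independent of the choice. The median log2 difference of the members was −0.14 in the meristem, 0.26 in the elongation zone and −0.15 in the differentiation zone.

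**Figure D4:**
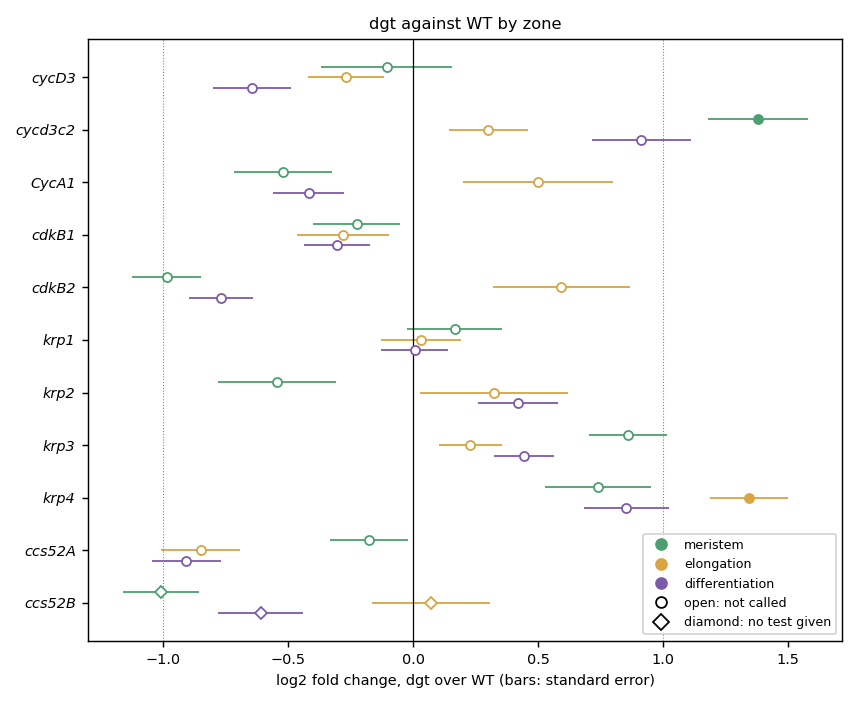
Log2 fold change of *dgt* over WT (horizontal axis) for each member in the meristem (green), elongation zone (yellow) and differentiation zone (purple); bars are standard errors, filled points were called, and *ccs52B* is drawn as diamonds because no test is given for it. *cycd3c2* at 1.38 in the meristem and *krp4* at 1.34 in the elongation zone are the filled points, and *cdkB2* and *CycA1* lie left of 0 in the outer zones and right of it in the elongation zone.

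Some marker transcripts outside the members also differed between genotypes. Shoot transcripts for photosynthesis (*CAB1B*, *CAB4*, *CAB5* and *rbcS1*, 4 of 13 symbols found) summed to 54.7 to 71.9 TPM in the *dgt* elongation zone against 4.73 to 7.70 TPM in WT, and to 145 to 207 TPM in the *dgt* differentiation zone against 26.4 to 40.1 TPM in WT. In the meristem the ranges overlapped, at 24.4 to 27.3 TPM in *dgt* and 13.6 to 44.5 TPM in WT. That overlap came from WT meristem replicate 2, and the other WT libraries had at most 19.7 TPM, below every *dgt* library. The part of these shoot transcripts in the members' differences was not tested. The summed markers of dividing cells overlapped between genotypes in each zone, at 1907 to 2148 TPM in *dgt* and 1753 to 2296 TPM in WT in the meristem. The meristem overlap rested on WT meristem replicate 2, since the other WT libraries had at most 1889 TPM, below every *dgt* library. Single markers did not all overlap. In the differentiation zone *pcna* had 31.1 to 34.9 TPM in *dgt* and 58.8 to 64.6 TPM in WT. In the elongation zone *H2B-1* and *H2B-2* overlapped in TPM, but the fits put them lower in *dgt* under 2-fold (log2 −0.61 and −0.54, adjusted p = 0.0184 and 0.0356). Over the alternatives these adjusted p-values rose to at most 0.147 and 0.274. In the meristem *dgt* stood below WT for *H2B-1* and above it for *H2B-2* without overlap, though neither passed the test (adjusted p = 0.215 and 0.859). Transcripts of root uptake (*LeAMT1;1* and *PT1*, 2 of 8 symbols found) had higher sums at each step up the root in both genotypes, and reached 644 to 738 TPM in *dgt* and 766 to 889 TPM in WT in the differentiation zone. There *PT1*, the larger part of the sum, overlapped between genotypes, while *LeAMT1;1* had 55.3 to 61.0 TPM in *dgt* and 103 to 118 TPM in WT. *LeAMT1;1* was also lower in the *dgt* meristem, under 2-fold (log2 −0.92, adjusted p = 0.00709).

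The third question is whether the *dgt* difference itself changed between zones, which was tested as an interaction over all 18 libraries. It passed for 4 of the 10 members, *cdkB2*, *cycd3c2*, *CycA1* and *ccs52A*, and for 20.0% of all genes tested. *cdkB2* was the firmest: its log2 difference was higher in the elongation zone than in the meristem by 1.60 (SE 0.28) and lower in the differentiation zone than in the elongation zone by 1.37 (SE 0.28; adjusted p of the joint test 0.00107, at most 0.00454 in 25 alternatives). For *cycd3c2* the difference fell by 1.05 from the meristem to the elongation zone (SE 0.27). The adjusted p of its joint test was 0.0263, and the threshold was missed in 4 of 25 alternatives. As *cycd3c2* entered the set through its *dgt* levels, its interaction test and the count that includes it are not independent of the choice.

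*CycA1* moved as *cdkB2* did, up by 1.03 and then down by 0.92 (SE 0.30 and 0.31, adjusted p of the joint test 0.0399). *ccs52A* moved down by 0.65 after the meristem (SE 0.22, adjusted p of the joint test 0.0476). Tested alone, this step of *ccs52A* did not pass (adjusted p = 0.0572), nor did the second step of *CycA1* (adjusted p = 0.0915). Both joint calls were near the threshold: *CycA1* missed it in 18 of 25 alternatives and *ccs52A* in 16. *krp3* missed it (adjusted p = 0.0573) and passed in 7 of 25. Leaving out single libraries gave 1 to 7 members, with 7 without WT meristem replicate 2, where *cycD3*, *krp2* and *krp3* joined. For *ccs52B* the same differences, described only, were 1.10 (SE 0.23) and −0.69 (SE 0.24).

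Of the 5 genes with such symbols that were not members, 4 were called in at least one comparison. That share was not taken over all genes, but the step from WT meristem to WT elongation zone alone called 27.0% higher and 25.6% lower. The count is therefore a description. *cycd3c3*, a D-type cyclin, had 4.33, 3.66 and 3.36 TPM in the *dgt* differentiation zone against 0.480, 0.850 and 0.760 TPM in WT, and was called higher (log2 2.32, SE 0.26, adjusted p = 8.16e-05). All 4 were called lower in the WT elongation zone than in the WT meristem, as were 25.6% of all genes tested. They were *cycd3c3* (log2 −4.29), *CycB2* (log2 −4.23), *wee1* (log2 −3.35) and *CycA2* (log2 −1.47). The WT meristem libraries of *CycA2* held 29.9, 5.82 and 21.9 TPM. *CycB2* and *wee1* were called higher again in the WT differentiation zone (log2 2.13 and 1.03), as were *cdkB2*, *CycA1* and 19.9% of all genes. The call of *wee1* was lost in 10 of 17 alternatives (log2 down to 0.79).

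Another 9 genes carried symbols of related functions (*CDKC*, the E2F partner *DP1*, histones *H1* and *H2B-1* to *H2B-3*, *RBR1*, *cdc20-1* and *pcna*). In WT 5 of them were called lower in the elongation zone than in the meristem and none higher, where 25.6% of all genes were lower and 27.0% higher. The same count held in *dgt*, against 26.6% and 26.2% of all genes. The smallest p-value among these in WT belonged to *cdc20-1*, like CCS52 genes an activator of the anaphase-promoting complex (log2 −4.69, SE 0.26). Between genotypes 1 of the 9 (11.1%) was called in each zone, near the 12.9%, 14.0% and 13.0% of all genes called in either direction in the meristem, elongation zone and differentiation zone. *H1* was lower in the *dgt* meristem (means of 204 against 365 TPM, adjusted p = 0.00634), *cdc20-1* was higher in the *dgt* elongation zone (log2 1.10, SE 0.26, adjusted p = 0.00945), and *pcna*, the sliding clamp of DNA replication, was lower in the *dgt* differentiation zone (log2 −1.03, SE 0.12, adjusted p = 8.79e-05). *H1* stood at 2-fold and fell under it in 6 of 14 alternatives, and *cdc20-1* and *pcna* fell under it in 2 of 14 each.

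Patterns most like those of single members were sought among 17958 genes with a mean TPM over 2, by Pearson r of log2(TPM + 0.1) over the 18 libraries. The nearest to *cycD3* was LOC101245356 (0.99), the nearest to *cdkB2* was LOC101252961 (0.99), and the nearest to *ccs52B* was LOC101268457 (0.99).

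In the order of the 6 group means, *ccs52B* and *cdkB2* both ran from WT meristem through *dgt* meristem, WT differentiation, *dgt* differentiation and *dgt* elongation to WT elongation. For *cdkB2* the last neighbours overlapped, at 10.6 and 5.60 TPM. For *ccs52B* the differentiation zones of the genotypes overlapped too, at 6.70 and 4.77 TPM. *ccs52A* ran from WT elongation through *dgt* elongation, WT differentiation and *dgt* differentiation to the meristems, which overlapped at 10.0 and 9.88 TPM.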

How the data were processed

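RNA-Seq reads of 18 root libraries were aligned by the authors with RSEM to transcripts of the tomato Heinz genome. Per the labels, replicates are biological. The authors deposited expected counts per gene, not normalized, and TPM values, scaled to transcript length and library total. The authors' isoform files also give each transcript's percent of its gene. Deposited tables of the authors' comparisons hold EBSeq posteriors and fold changes and were not used. The members and gene lists were chosen with earlier results of these data known.

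Rounded counts entered edgeR 4.0.16 under R 4.3.3 (filterByExpr with minimum count 10 and total 15, TMM, glmQLFit and glmQLFTest, prior count 0.125) over all genes kept. Genes with an adjusted p-value below 0.05 that also differed by more than 2-fold (ratio above 2 or below 0.5) were called. Genotypes were compared within each zone's 6 libraries, zones within each genotype's 9. Named genes are the members, other genes of the symbol set that were called, at most 4 called genes per comparison from a list of other cell cycle symbols, and the gene of nearest pattern for *ccs52B*, *cycD3* and *cdkB2*. Alternatives were other scalings and filters, DESeq2 1.42.0, a replicate block, all 18 libraries in 1 fit, and leaving out each library. Python 3.11.15, numpy 2.4.6, pandas 2.3.3 and matplotlib 3.10.9 did the rest. The procedures were tested on simulated data.

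All 11 members had a match in the RefSeq table of SLM_r2.1 genes, used for names alone since the reads were aligned to a different assembly. Expected counts of each member were not whole in 12 to 18 of 18 libraries, because RSEM divides reads that align to several transcripts, so genes with close copies are less certain. No replicate pair agreed within sampling noise (chi-square per degree of freedom 5.00 to 142.6). Where a gene's counts are high, the spread between 3 replicates limits precision more than counting error. In the WT elongation zone some counts were low, down to 27 for *krp2*, 36 for *CycA1*, 44 for *ccs52B* and 11 for *CycB2*. For *cycd3c3* they fell to 9 in the WT differentiation zone. There counting error adds to the spread. Replicate numbers stand in the labels. Deviations of same-numbered libraries correlated at −0.258 to 0.413. Every pair exceeded 0.1 only in the comparison of WT differentiation with WT elongation zone (0.139 to 0.413), where the numbers were taken to pair the libraries. Values in the text are from the fit without the block.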

Additional observations from a re-analysis of the deposited data

Results flagged for a closer look

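The interaction test over 18 libraries, of a *dgt* difference that changes between zones, passed for 4 of the 10 ranked members and for 20.0% of all genes tested. The members were *cdkB2* (adjusted p = 0.00107), *cycd3c2* (0.0263), *CycA1* (0.0399) and *ccs52A* (0.0476). The last 3 missed the threshold in 4, 18 and 16 of 25 alternatives. As *cycd3c2* entered the set through its *dgt* levels, its test and the count of members are not independent of the choice. The test also passed for 3 of the 5 genes of the symbol set that were not members: *cycd3c3* (0.00223), *CycB2* (0.00476) and *wee1* (0.00955). Of the 9 other cell cycle symbols, *cdc20-1* (0.000941) and *CDKC* (0.0338) passed, but *CDKC* missed the threshold in 14 of 25 alternatives (adjusted p up to 0.138). *CycB2* and *cdc20-1* had the same signs as *cdkB2*: the log2 differences of *CycB2* from meristem to differentiation zone were −0.86, 0.40 and −0.86, and those of *cdc20-1* were −0.41, 1.10 and −0.57. Not all of these passed within a zone: *CycB2* and *cdkB2* did not in the elongation zone (adjusted p = 0.385 and 0.134), nor *cdc20-1* in the meristem (0.105). The share of all genes with these signs was not taken. *cycd3c3* had its largest difference in the differentiation zone (log2 2.32, against 0.68 and 0.75 in the meristem and elongation zone).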

How the results depend on the processing

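No direction of a called member reversed. Without leave-one-out, 116 of 121 values for the members (counts, interaction calls and levels) stayed within 1.5 times their main value. The exceptions were the members called higher in the *dgt* meristem, which became 2 with library totals alone and 2 with upper-quartile scaling, lower there, which became 1 with all 18 libraries in 1 fit, higher in the *dgt* differentiation zone, which became 1 with library totals alone, and the interaction, which gave 2 members with the replicate block. The block also made the step of *cycd3c2* out of the WT meristem a call, and changed no other call of a member. Only in the comparison of WT differentiation with WT elongation zone were the libraries taken as paired, and there the block changed no call of a gene named here (4 members higher and 3 lower, as without it). Elsewhere the block took *H1* in the *dgt* meristem under 2-fold and ended the interaction of *CDKC*. Leaving out 1 library gave 0 to 1 members lower in the *dgt* meristem, 0 to 1 higher and 0 to 1 lower in the *dgt* differentiation zone, 2 to 4 higher from WT meristem to WT elongation zone, 1 to 3 higher from *dgt* elongation to *dgt* differentiation zone, and 1 to 7 for the interaction. Over all genes, 542 were called lower in the *dgt* meristem, but 260 with library totals, 926 with all 18 libraries in 1 fit and 301 to 1515 leaving out 1 library, and 867 were lower in the *dgt* elongation zone, but 520 with library totals. Without WT meristem replicate 2, 1515 genes in place of 542 were called lower in the *dgt* meristem, and 8235 in place of 4404 by the interaction.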
